A study of Mus musculus with 2 samples.

Results

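Cd28, Ctla4 and Icos are 3 neighbouring genes on mouse chromosome 1 that encode related receptors of T cells. The genes were chosen with earlier results of these libraries known, so the values below describe them and are not a test, and their open regions were selected by position. An interval belonged to a gene if the start site nearest to its summit, among protein-coding genes and within 100 kb, was that gene's, or if the summit lay within 1 kb of that start site. By this rule the locus held 107 of 127423 intervals in the vehicle library and 113 of 179414 in the TAMo library. Joined where they overlapped, they gave 86 regions with a peak in both libraries, of 103845 such regions genome-wide.

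Accessible DNA was profiled by ATAC-seq, an assay that tags open chromatin with a transposase. The cells were wild-type mouse OT-I CD8+ T cells, which carry a transgenic T cell receptor specific for ovalbumin. All cells received OVA257-264 peptide for 48 h, and the groups differed in the addition of vehicle or of TAMos. The labels define TAMos as CD11b+ Ly6G- Ly6C-high cells taken from spleens of mice with LLC (Lewis lung carcinoma) tumours. T cells were then sorted, about 50000 per library. The labels give neither the age of the animals nor whether cells of several animals were pooled. With 1 library per group, no difference below has a replicate check or a test, and intervals reflect counting error alone.

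The 3 receptors belong to the immunoglobulin superfamily and act at the contact between a T cell and an antigen-presenting cell. CD28 is present on resting T cells and gives the costimulatory signal when it binds CD80 or CD86. CTLA-4 appears after activation, binds the same ligands with higher affinity and restrains the response. ICOS, also induced by activation, binds a separate ligand, ICOS-L, and signals mainly through phosphoinositide 3-kinase.

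Coverage is the number of reads stacked at a peak's summit, recovered from the authors' peak values. It was divided by the library's background coverage, 4.71 reads in vehicle and 5.80 reads in TAMo, a depth ratio of 1.23, and the log2 ratio of these scaled values, TAMo over vehicle, is given with a 95% exact binomial interval. A region is called higher or lower if it differed by at least 1.5-fold. The median over all shared regions was 0.28, and 35.3% of them were higher and 8.54% lower. Counts over short stretches of a few regions are given further on as descriptions and are not read against those shares. The bounds of all these stretches were set after the values were seen. Promoter peaks were found in both libraries for 7 of 7 marker genes of CD8 T cells, such as Cd8a and Cd3e, while Cd4 and Cd79a had none in either. Of the CD8 T cell markers, Thy1 was lower, with 506 reads in vehicle and 371 in TAMo (−0.75, −0.95 to −0.55), a ratio below that of the Ctla4 promoter given further on. The other CD4 T cell marker, Zbtb7b, had a promoter peak of 831 reads in vehicle and 1144 in TAMo. The B cell gene Ms4a1 held 26 reads in vehicle and 65 in TAMo, and Pax5 had a peak of 30 reads in TAMo only. Of 7 myeloid marker genes, 2 had a promoter peak in vehicle and 5 in TAMo, the highest at Cd14 with 141 and 411 reads. Scaled coverage summed over these called peaks, 2 in vehicle and 5 in TAMo, was 35.3 and 124, so sites without a call add nothing to a sum. Ly6c2 and Lyz2 had no promoter peak in either. Over all TAMo peaks, 39.5% overlapped no vehicle peak. The part of the myeloid and B cell signal in the ratios below was not tested.

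The sequences that were available lie under 2 of the Ctla4 regions and come from RefSeq windows on GRCm38.p6, the assembly also called mm10. The region with the lowest ratio, given further on, had no such window. Each window runs from 250 bases before to 50 bases after an annotated start site on the plus strand. The Ctla4 window, chr1:60908775-60909074, lay wholly inside the promoter peak of both libraries, whose summits fell on its bases 232 (vehicle) and 241 (TAMo). The Gm39650 window, chr1:60886839-60887138, belongs to a noncoding gene upstream of Ctla4 and lay wholly inside a region that was much lower in the TAMo library. The highest summits of that region fell outside this 300-base window, at bases −48 (vehicle) and 419 (TAMo). Its TAMo peak began at 60887129, near the window's end, so the ratio of the region was not measured on the printed bases. Of the 3 receptor genes, 1 had a RefSeq window; Cd28 and Icos are named only. Capitals mark the motifs found.

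Ctla4: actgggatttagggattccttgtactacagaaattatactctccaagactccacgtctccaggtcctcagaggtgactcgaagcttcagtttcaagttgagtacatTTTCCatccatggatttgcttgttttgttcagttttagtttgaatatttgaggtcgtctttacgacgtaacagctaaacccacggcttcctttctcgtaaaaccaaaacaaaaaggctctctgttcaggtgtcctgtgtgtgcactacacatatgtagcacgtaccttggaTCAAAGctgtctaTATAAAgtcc
Gm39650: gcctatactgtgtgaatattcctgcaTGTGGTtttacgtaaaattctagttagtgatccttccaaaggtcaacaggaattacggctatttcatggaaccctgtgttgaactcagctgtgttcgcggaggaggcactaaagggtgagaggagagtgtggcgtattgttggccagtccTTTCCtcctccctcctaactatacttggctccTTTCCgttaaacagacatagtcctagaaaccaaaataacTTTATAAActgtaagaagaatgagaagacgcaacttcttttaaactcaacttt

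Both strands of each window were searched for short motifs. The AP-1 motif was spelled TGANTCA, and the core of the NFAT motif was spelled GGAAA. For RUNX factors the letters searched were TGTGGT, and for TCF/LEF factors they were CTTTGA. The TATA box was searched as TATAAA. For ETS factors the search used CCGGAAG, and for the cyclic AMP response element (CRE) it used TGACGT. The Ctla4 window held 1 NFAT core at bases 107 to 111, 1 TCF/LEF motif at bases 278 to 283 and 1 TATA box at bases 291 to 296. The Gm39650 window held 2 NFAT cores, 1 RUNX motif at bases 27 to 32, and 2 TATA boxes on opposite strands that overlap at bases 250 to 253. Counted from the annotated start site, the TATAAA letters begin at 40 in Ctla4, after the start, and at −3 and −1 in Gm39650, on the start. They are thus matches of letters and not boxes placed before the start site of their window. Ctla4 has a second start site, 60909171, which lies after the window and so after its TATAAA letters. Of 32817 RefSeq windows of the same length, 61.3% held an NFAT core, 16.8% the RUNX motif, 16% the TCF/LEF motif and 13.6% the TATA box. The letters of AP-1, ETS and CRE, held by 7.81%, 8.86% and 7.51% of windows, are in neither window. These matches describe letters and do not show binding.

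The first comparison asked how open regions of the locus were distributed in each culture. All 3 genes had many peaks assigned to them in both libraries. Such counts grow with the distance to neighbouring genes, and no count per kb was made. Past Icos, the 100 kb allowed by the rule held no other protein-coding start site. Ctla4 had 47 peaks in vehicle and 48 in TAMo, more than 99.6% of 20807 autosomal protein-coding genes when both lists are added up. Cd28 had 28 peaks in vehicle and 38 in TAMo, and Icos had 32 in vehicle and 27 in TAMo. The median gene had 3 and 5. Genome-wide the TAMo list was 1.41 times as long as the vehicle list, whereas the ratio was 1.36 at Cd28, 1.02 at Ctla4 and 0.844 at Icos. Most peaks lay between protein-coding genes, with gene bodies taken from the basic annotation. Longer noncoding transcripts of Cd28 and Ctla4 outside that annotation, and noncoding genes, were not counted as gene bodies. In vehicle 84 lay between protein-coding genes, 19 in introns, 1 in an exon and 3 at start sites. In TAMo the numbers were 86, 20, 4 and 3. At the edges of the rule, the last TAMo peak counted for Icos lay 81874 bp from its start site (150 reads) and the next, not counted, 107024 bp away (53 reads). On the Cd28 side the first TAMo peak counted had 21 reads, and the last not counted, nearer to Raph1, had 42 reads.

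**Figure D1:**
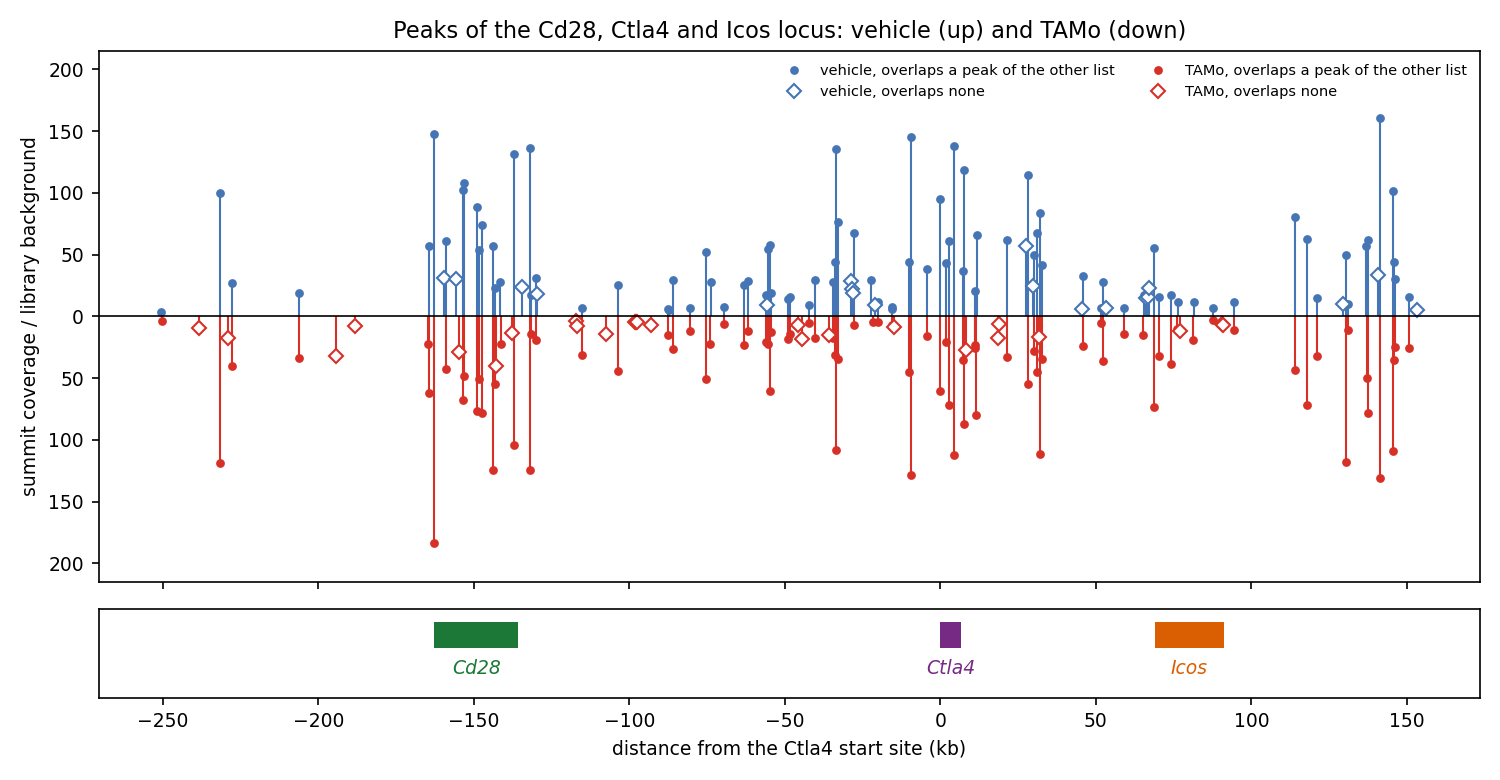
Scaled summit coverage (summit reads divided by the library's background) of every peak of the locus against distance from the Ctla4 start site in kb, vehicle upward and TAMo downward. Filled points overlap a peak of the other list, open diamonds overlap none, and bars below mark the 3 genes. The tallest TAMo stem is the Cd28 promoter at 184 times background.

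The 3 promoters differed in direction: Cd28 and Icos had ratios above 0 and Ctla4 below. At the Cd28 promoter (ENSMUSG00000026012.2, start site 60746358) the summit held 693 reads in vehicle and 1067 in TAMo, a log2 ratio of 0.32 (0.18 to 0.46). The Icos promoter (ENSMUSG00000026009.14, start site 60977927) held 260 reads in vehicle and 428 in TAMo, a log2 ratio of 0.42 (0.19 to 0.64). Both counting intervals lay above 0 on the background scale, and neither promoter reached the 1.5-fold threshold. Centred on the median of all shared regions, both intervals include 0, at 0.045 (−0.095 to 0.18) for Cd28 and 0.14 (−0.085 to 0.37) for Icos. Shared promoter regions had a lower median, 0.048, than shared distal regions, 0.37. Centred on the promoter median, the ratios were 0.27 for Cd28 and 0.37 for Icos, so the outcome depends on the reference. The Ctla4 promoter (ENSMUSG00000026011.13, start sites 60909025 and 60909171) held 446 reads in vehicle and 352 in TAMo and was lower, at −0.64 (−0.85 to −0.44). Promoter values of Ctla4 were among the earlier results from which the genes were chosen. Its ratio is therefore a known starting point, and the shares that follow are given for scale only. Of 12812 genes whose strongest promoter peaks overlapped, 3.19% were lower and 8.75% higher by 1.5-fold. Over all 17731 shared regions at start sites the shares were 4.39% and 12.3%.

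The order of the promoters by summit coverage differed between the libraries. In vehicle it was Cd28, Ctla4 and Icos, with 1.55 times as many reads at Cd28 as at Ctla4 and 1.72 times as many at Ctla4 as at Icos. In TAMo it was Cd28, Icos and Ctla4, and Icos exceeded Ctla4 by 1.22-fold (log2 0.28, 0.08 to 0.49). The neighbours in each order thus differed beyond counting error, although without replicates the spread between cultures is not known. The protein-coding genes flanking the locus were within 1.5-fold: Raph1 was at 0.24 (0.04 to 0.44; 356 and 518 reads) and Pard3b at −0.00 (−0.61 to 0.61; 43 and 53 reads).

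Across all shared regions, those of Ctla4 leaned to lower coverage in the TAMo library while those of Cd28 and Icos did not. Of 39 Ctla4 regions 17 were lower (43.6%) and 1 was higher, and the median log2 ratio was −0.33. The promoter region, whose values were known when the genes were chosen, is among the 17. Of 23 Cd28 regions 3 were lower and 6 higher, with a median of 0.09. Of 24 Icos regions 2 were lower and 7 higher, with a median of 0.12. Against the genome-wide shares of 8.54% lower and 35.3% higher, Ctla4 stood apart in both directions, while Icos (8.33% and 29.2%) was close to them and Cd28 (3 and 6 of 23 regions) differed from them by few regions. Distal regions alone, which are most of the locus, were lower at 9.39% and higher at 40.1% genome-wide. Centred on the median of all shared regions, Ctla4 had 21 lower and 0 higher, Cd28 6 and 4, and Icos 4 and 5, against 16.1% lower and 25.9% higher over all shared regions under the same centring, and the medians of Cd28 and Icos then lie below 0. Among 546 genes with at least 20 shared regions, 2 had a larger share of lower regions than Ctla4. Fewer cells with an open site and a site open less often per cell cannot be told apart in such bulk libraries.

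**Figure D2:**
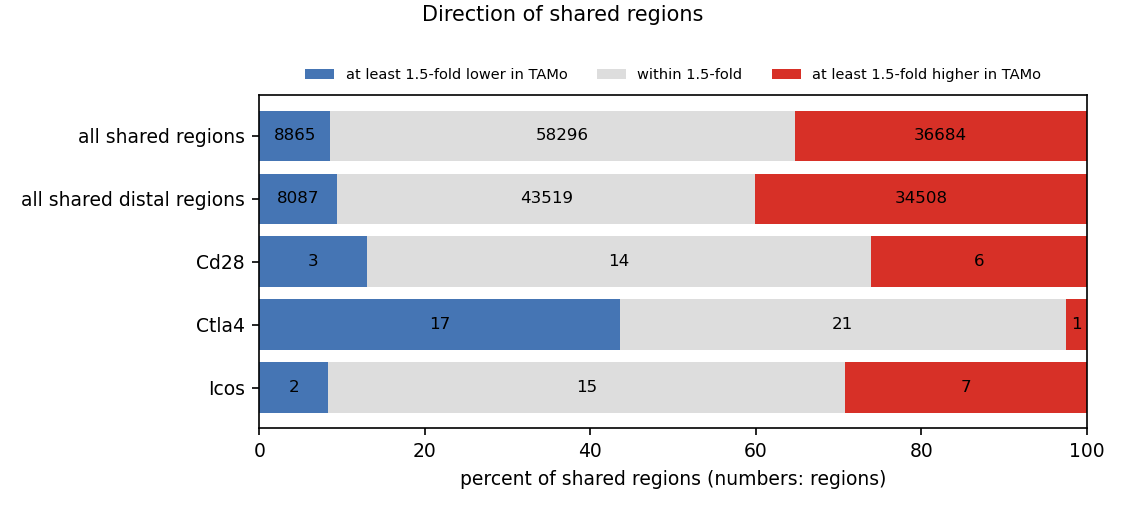
Stacked bars of the percentage of shared regions that were at least 1.5-fold lower (blue), within 1.5-fold (grey) or at least 1.5-fold higher (red) in TAMo, with the number of regions printed in each part. The blue part holds 17 of 39 regions for Ctla4 and 8865 of 103845 for all shared regions.

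Within the same 39 Ctla4 regions, the lean was not confined to weak sites. The counts that follow re-count these regions and add no separate observations. Among distal regions with a mean scaled coverage of at least 20, a subset added after the values were seen, 12 of 28 Ctla4 regions were lower and 0 were higher. Over all 41831 such regions 8.37% were lower and 40.8% higher. With a 2-fold threshold 9 of the 39 Ctla4 regions were lower and 0 higher, against 3.19% and 21.9% of all shared regions. The caller's local background around each summit, which is taken over a wider stretch and shares reads with the summit, was lower after scaling at 37 of 39 Ctla4 regions, 8 of 23 Cd28 regions and 14 of 24 Icos regions. Genome-wide it was lower at 37.1% of shared regions. Neighbouring regions hold nearly the same local background, so these counts are not counts of separate observations.

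**Figure D3:**
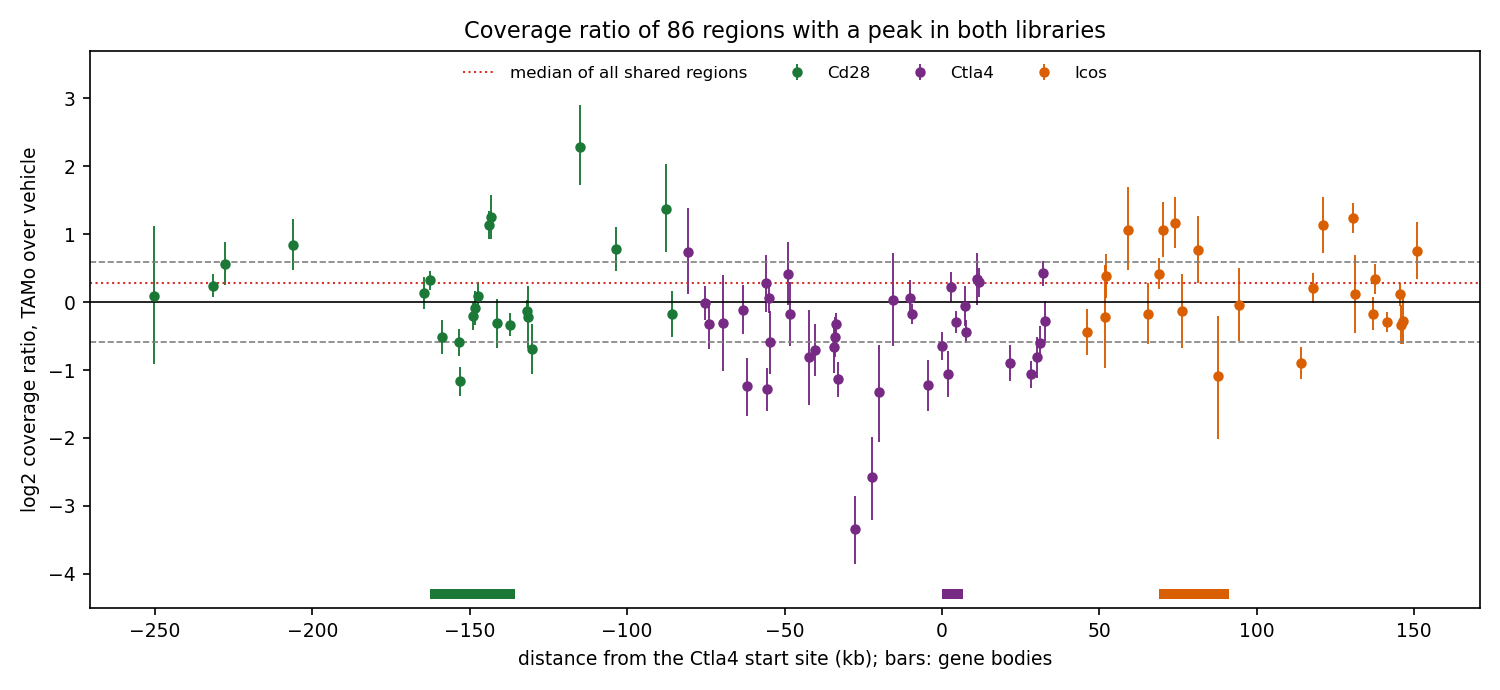
Log2 coverage ratio (TAMo over vehicle) of the 86 shared regions against distance from the Ctla4 start site in kb, coloured by gene, with 95% exact binomial intervals. Dashed lines mark 1.5-fold, the dotted line marks the median of all shared regions (0.28), and bars mark gene bodies. The lowest point, at −3.33, lies 27.7 kb upstream of Ctla4.

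The lowest ratios in the locus were in a stretch 19 to 29 kb upstream of Ctla4, whose bounds were set after the values were seen. At chr1:60881121-60881554 the summit held 319 reads in vehicle and 39 in TAMo, a 10.1-fold lower scaled coverage (log2 −3.33, −3.85 to −2.85). Of all 103845 shared regions, 8 had a ratio this low or lower, this one included. It lies between protein-coding genes, within Gm38137, a transcript that GENCODE lists as still to be verified by experiment. At chr1:60886623-60887465, which contains the Gm39650 window printed above, 140 reads in vehicle stood against 29 in TAMo (−2.57, −3.20 to −1.99). The 2 summits lie 467 bp apart, and at the vehicle summit 57 bp from the TAMo one the values were 134 and 29 reads (−2.51). This region also covers the start, at 60887000, of a noncoding Ctla4 transcript outside the basic annotation, and the start of Gm39650. The third region, chr1:60888947-60889141, held 53 reads in vehicle and 26 in TAMo (−1.33, −2.07 to −0.63).

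Peaks without a TAMo counterpart lay in the same stretch. They were 4 vehicle peaks, at 28726, 28414, 28035 and 20854 bp upstream of Ctla4, with 133, 105, 88 and 44 reads. Coverage of the TAMo library at these 4 sites was not measured, since a list holds values only for peaks that were called. The local background at the strongest site of the stretch was 26.3 reads in vehicle and 6.33 in TAMo, close to that library's overall background. The stretch thus held 3 regions and 4 further peaks in vehicle and only the 3 weak regions in TAMo.

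On either side of that stretch, strong Ctla4 regions differed less between the libraries. Ranked by −log10 q, the strongest peak assigned to Ctla4 in both libraries, chr1:60899091-60900082, lay 9.52 kb upstream of the start site and held 682 reads in vehicle and 744 in TAMo (−0.18, −0.33 to −0.02). The second by −log10 q, chr1:60875200-60875782, 33.6 kb upstream, held 639 and 628 reads (−0.33, −0.49 to −0.17). Its direct neighbour, chr1:60875880-60876172, was lower, with 358 reads in vehicle and 201 in TAMo (−1.14, −1.39 to −0.88). Adjacent sites within one cluster thus had different ratios. From 40 to 81 kb upstream, 5 of 14 regions were lower and 1 higher; the latter, 80.6 kb upstream, had 33 reads in vehicle and 68 in TAMo (0.74, 0.12 to 1.39).

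Within Ctla4 and downstream of it the pattern was also mixed. Inside the gene, the third strongest vehicle peak by −log10 q (chr1:60913333-60913714, intronic, 4.34 kb from the start site) held 648 reads in vehicle and 653 in TAMo (−0.29). The intronic region at chr1:60910892-60911104 was lower, with 204 and 121 reads (−1.06, −1.39 to −0.72), while the one at chr1:60911640-60911938, less than 1 kb away, held 288 and 415 reads (0.22, 0.0042 to 0.45). None of 4 regions 7 to 12 kb downstream was lower or higher. The bounds of this stretch and of the next were also set after the values were seen. From 21 to 33 kb downstream 4 of 6 regions were lower, among them chr1:60936687-60937336 with 537 and 317 reads (−1.06, −1.27 to −0.86). The other 2 were chr1:60941570-60942060, with 196 and 199 reads (−0.28, −0.57 to 0.011), and chr1:60941089-60941539, the third strongest Ctla4 peak of the TAMo library by −log10 q, with 392 reads in vehicle and 649 in TAMo (0.42, 0.24 to 0.61).

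Among the Ctla4 peaks found in 1 library only, 7 in vehicle and 8 in TAMo, those with a −log10 q of at least 20 were 1 in vehicle and 3 in TAMo. The vehicle peak, chr1:60936314-60936683, had 269 reads and ended 3 bp before the lower region at 60936687 described above; the nearest TAMo peak began 339 bp further on. The 3 TAMo peaks were at 44.5 kb upstream (chr1:60864327-60864620, 105 reads), 18.4 kb downstream (chr1:60927404-60927654, 101 reads) and 8.23 kb downstream (chr1:60917323-60917484, 159 reads). Peaks called in TAMo only thus also occurred around Ctla4.

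Cd28 regions split by position within the gene. Its strongest peak in both libraries, by reads and by −log10 q, was the promoter. In the intron after the start site, chr1:60755830-60756208, 9.61 kb in, was lower, with 508 reads in vehicle and 280 in TAMo (−1.16, −1.38 to −0.95). Its neighbour chr1:60755410-60755721 was also lower, with 481 and 394 reads (−0.59, −0.79 to −0.40). The regions at chr1:60764977-60765470 and chr1:60765733-60765967, 18.9 and 19.5 kb in, were higher. The former held 267 reads in vehicle and 721 in TAMo (1.13, 0.93 to 1.34), and the latter held 108 and 317 (1.25, 0.93 to 1.58). Next to this pair lay a TAMo-only peak of 236 reads (chr1:60766017-60766227). Ratios of opposite sign thus stood about 10 kb apart inside the same gene, with 3 regions between them, 13 to 16 kb in, that were neither higher nor lower (253 to 417 reads in vehicle).

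Of the Cd28 peaks outside the promoter, those among the 3 with the highest −log10 q in either library were within 1.5-fold, unlike the intronic sites above with 508, 481 and 267 vehicle reads. The peak over an exon, chr1:60771769-60772402, 25.6 kb in, held 617 and 605 reads (−0.33). The peak chr1:60776642-60777320, 30.8 kb from the start site and within the long noncoding RNA gene Gm11579, held 640 and 721 reads (−0.13, −0.29 to 0.03). The upstream peak chr1:60677287-60677801, 68.8 kb before the start site, held 471 and 688 reads (0.24, 0.07 to 0.42). The highest Cd28 ratio was at a weaker site, chr1:60793784-60794172 within the lincRNA gene 2310016D23Rik, with 30 reads in vehicle and 181 in TAMo (2.29, 1.73 to 2.90). Genome-wide, 3822 shared regions had a ratio at least this high.

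Cd28 had more peaks called in TAMo only than the other genes. They were 14 of its 38 TAMo peaks (36.8%, Wilson interval 23.4 to 52.7%), against 8 of 48 at Ctla4 and 3 of 27 at Icos. Over all TAMo peaks the share was 39.5%, so that of Cd28 was ordinary and those of Ctla4 (16.7%, 8.70 to 29.6%) and Icos (11.1%, 3.85 to 28.1%) were below it. The strongest by −log10 q, chr1:60714318-60714836, lay 31.7 kb upstream of the start site with 185 reads. Others with a −log10 q of at least 20 lay 75.7 kb (57 reads), 66.4 kb (101 reads) and 25.5 kb (46 reads) upstream, 7.82 kb into the gene (170 reads), and 45.7 kb (47 reads) and 55.1 kb (81 reads) downstream. Vehicle-only peaks were 4 of 28 at Cd28, 7 of 47 at Ctla4 and 8 of 32 at Icos, against 12.5% of all vehicle peaks. These counts depend on list length: keeping as many TAMo peaks as vehicle peaks, those of highest −log10 q, 13 peaks of the locus were TAMo-only and 30 vehicle-only, against 25.7% and 22.2% of all peaks. TAMo-only peaks were then 9 of 30 at Cd28, 3 of 38 at Ctla4 and 1 of 22 at Icos. The vehicle-only Cd28 peak past the same limit was intronic, chr1:60749458-60749647, with 144 reads.

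The Icos regions as a whole did not stand out: 29.2% were higher, below the 35.3% of all shared regions. In the gene, 3 of 5 regions beyond the start site were higher, too few to set against that share. The region at chr1:60979098-60979481, 1.35 kb in, held 72 reads in vehicle and 185 in TAMo (1.06, 0.66 to 1.47), and chr1:60983026-60983355, 5.25 kb in, held 82 and 226 (1.16, 0.79 to 1.54). The third, chr1:60990116-60990937, held 53 and 111 (0.76, 0.28 to 1.26). One intronic region, chr1:60996597-60996879, was lower, with 31 and 18 reads (−1.09, −2.01 to −0.20). Just before the promoter, 3 vehicle-only peaks stood 1.89 to 2.66 kb upstream, the strongest at chr1:60975879-60976160 with 109 reads. The other vehicle-only Icos peak with a −log10 q of at least 20, chr1:61049762-61049943, had 156 reads. None of the 3 TAMo-only Icos peaks passed that limit, and their reads ran from 34 to 71.

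The strongest Icos peaks lay downstream of the gene, and their order by −log10 q differed between the libraries. In TAMo the strongest by −log10 q was chr1:61039281-61039853, 61.6 kb from the start site, with 235 reads in vehicle and 684 in TAMo (1.24, 1.02 to 1.46). In vehicle the strongest by this measure was chr1:61050142-61050772, 72.6 kb away, which held 756 reads in vehicle and 760 in TAMo (−0.29, −0.44 to −0.15). By summit reads it was the highest Icos peak in both libraries. The next, chr1:61054404-61054808, held 476 and 635 reads (0.11, −0.06 to 0.29). The third vehicle peak by −log10 q, chr1:61022708-61023375, 45.1 kb away, was lower, with 377 and 251 reads (−0.89, −1.13 to −0.66). None of the 6 regions 68 to 78 kb downstream was higher or lower. These regions are assigned to Icos because no other protein-coding start site is nearer, which does not show that they act on it.

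Most genes of the same pathway had promoter coverage within 1.5-fold between the libraries. The list of 30 genes covered ligands, receptor relatives, signalling partners, CTLA-4 trafficking and ICOS mRNA control, and 28 had overlapping promoter peaks. Of these 1 was higher and 0 were lower, with a median of 0.0056 against 0.030 over all 12812 genes, where 8.75% were higher and 3.19% lower. The higher gene was Cd80, which encodes a ligand shared by CD28 and CTLA-4, with 429 reads in vehicle and 1137 in TAMo (1.10, 0.94 to 1.27). Antigen-presenting cells express this ligand. Of the 7 myeloid markers given above, 2 had overlapping promoter peaks, both higher in TAMo, and 2 had no peak in either library. The part of such cells in the Cd80 ratio was not tested. The gene of the other shared ligand, Cd86, had its strongest promoter peak at different sites in the libraries, and Icosl was at 0.16 (−0.10 to 0.43).

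Receptor relatives differed from each other. Pdcd1, which encodes the inhibitory receptor PD-1, held 255 reads in vehicle and 236 in TAMo (−0.41, −0.68 to −0.15), and Btla, an inhibitory receptor gene, held 334 and 597 (0.54, 0.34 to 0.73). Among signalling partners, the guanine nucleotide exchange factor gene Vav1 was at 0.41 (0.22 to 0.60). Lrba, whose product protects CTLA-4 from lysosomal degradation, was at −0.23 (−0.40 to −0.06). None of these 4 promoters reached 1.5-fold.

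**Figure D4:**
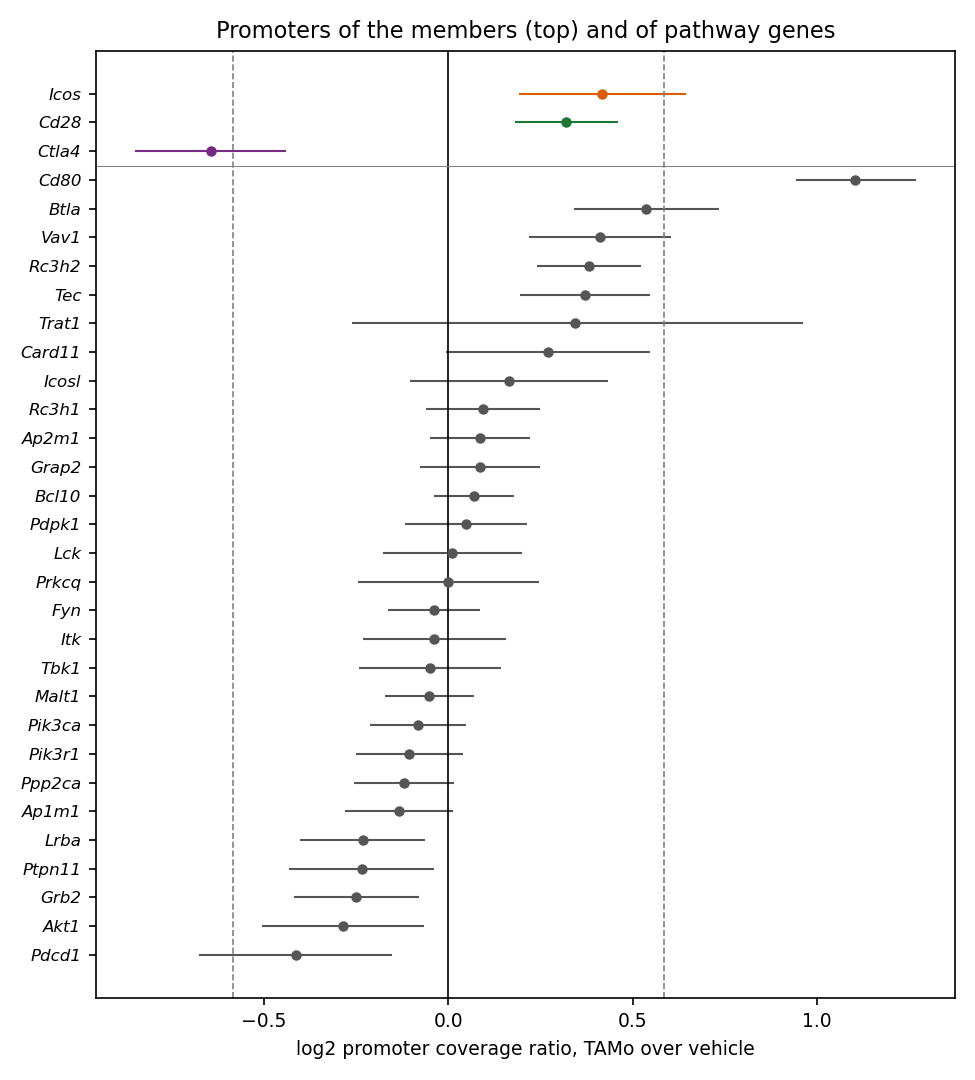
Log2 promoter coverage ratio (TAMo over vehicle) of Icos, Cd28 and Ctla4 (top) and of the 28 pathway genes with overlapping promoter peaks, with 95% exact binomial intervals; dashed lines mark 1.5-fold. Ctla4 (−0.64) and Cd80 (1.10) lie beyond the dashed lines.

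The genes whose promoters were most like those of the locus were found by the distance between their pairs of log2 scaled coverages over the 2 libraries. They were Rpl13a (distance 0.0042) and Engase (0.0068) for Cd28, Polr2e (0.021) and Carmil2 (0.021) for Ctla4, and Zfp85 (0.019) and Nat2 (0.022) for Icos. At Polr2e, for example, 445 reads in vehicle stood against 357 in TAMo. With 2 libraries, such closeness says only that the levels and their ratio are alike.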

How the data were processed

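Intervals were deposited by the authors as 1 peak list per library, called separately. Per the submitters' processing notes, Trimmomatic 0.36 and Bowtie2 were used with mm10 before MACS2; no source used here gives read shifting, duplicate removal or settings. Per the deposited values, each row holds a fold enrichment (a ratio), a −log10 p, a −log10 q and a score derived from the latter, all the authors' own. Coverage and local background were solved from fold, taken as (coverage + 1)/(background + 1), and the Poisson −log10 p, with a tolerance of 1% of the step between whole coverages; this left out 30 of 163215 vehicle rows and 48 of 225656 TAMo rows, 0 of them in the locus. The recovery was tested on simulated data. Each library's depth was its most frequent background. Peaks were taken as shared at an overlap of 1 bp. Reads are not independent molecules, so exact binomial and Wilson intervals cover counting error only. Start sites came from the GENCODE M21 basic annotation. Peaks reached down to a −log10 q of 1.32 (vehicle) and 1.34 (TAMo). Python 3.11.15 and scipy 1.17.1 were used.

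The genes, lists and rules were chosen with earlier results of these data known. Named were the 3 genes, their neighbours, pathway genes past 1.5-fold and up to 6 others, the 2 genes nearest in pattern to each, promoter peaks, the 3 strongest peaks per gene and library, and 1-library peaks with a −log10 q of at least 20. Other regions were named after their values were seen. Sequences were limited to RefSeq windows. One marker gene is not reported here.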

Additional observations from a re-analysis of the deposited data

How the results depend on the processing

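Of 88 recomputed values, 67 stayed within 1.5 times the reported count or within the interval or spread of the reported value, and no called value changed sign. Centring on the median of all shared regions moved the promoter ratios to 0.045 (Cd28), −0.92 (Ctla4) and 0.14 (Icos), the higher regions of the locus from 14 to 9, those of Ctla4 from 1 to 0, the lower regions of Cd28 from 3 to 6 and of Icos from 2 to 4, and lower pathway genes from 0 to 1. Centring on the median of shared promoter regions instead gave promoter ratios of 0.27 (Cd28), −0.69 (Ctla4) and 0.37 (Icos). A 2-fold threshold, stricter by construction, left 9 higher and 11 lower regions in the locus, with 9 lower and 0 higher at Ctla4, 1 lower at Cd28 and 1 at Icos. Among distal regions with a mean scaled coverage of at least 20, an alternative added after seeing the data, Icos had 1 lower region and Ctla4 had 0 higher. With lists of equal length, which shorten the TAMo list, 30 peaks were vehicle-only in place of 19 and 13 TAMo-only in place of 25. Within 50 kb, Cd28 kept 25 TAMo peaks, and Icos 19 in vehicle and 17 in TAMo, as fewer peaks are counted. No paired analysis was possible because each group has 1 library. Depth limits the weak regions: at 31 against 18 reads the interval of the log2 ratio spans −2.01 to −0.20.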
